A study of Rattus norvegicus with 27 samples.

Results

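The unfolded protein response was followed through the differentiation of rat parotid acinar cells by the mRNA levels of 10 genes chosen by name: the sensors Ern1, Atf6 and Eif2ak3, the factors Xbp1, Atf4, Ddit3, Creb3l2 and Nupr1, the phosphatase subunit Ppp1r15a, and Bhlha15, which encodes the secretory cell factor MIST1. Of these 10 genes, 9 were among the 14217 that the array annotation names, and they were measured by 10 of 31042 probe sets. Atf6 had 2 probe sets and the other measured genes 1 each. Ern1, which encodes the sensor IRE1, was paired with no probe set and is not analysed here, so that the IRE1 arm is represented by its substrate Xbp1. All rats were Sprague Dawley animals given no treatment, and RNA of acini cut from tissue sections by laser was hybridised with 3 arrays, from separate litters per the study's methods, at each of 9 ages. E18, E20 and P0 made up stage 1 (9 arrays), P2 with P5 stage 2, P9 with P15 stage 3, and P20 with P25 stage 4 (6 arrays each), where E counts embryonic and P postnatal days. The study set these stage limits from the same arrays. Sections came from whole heads until P5 and from the excised gland at older ages, so that age and preparation cannot be told apart in any comparison of stage 3 or 4 with stage 1 or 2, P25 against E18 included.

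In the unfolded protein response, proteins that misfold in the endoplasmic reticulum (ER) activate sensors in its membrane. IRE1 splices Xbp1 mRNA so that it encodes an active transcription factor, ATF6 travels to the Golgi where proteases free its factor domain, and PERK, encoded by Eif2ak3, phosphorylates the translation factor eIF2alpha, which lowers protein synthesis while favouring translation of Atf4. Professional secretory cells, salivary acini among them, use the same arms to build a large ER, and in mice MIST1 lies downstream of XBP1. Splicing, cleavage and phosphorylation are not seen by these arrays, which report total mRNA as log2 values, where 1 unit is a doubling.

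The 250 bases before the start of 8 of the 10 genes were taken from RefSeq (rat build GRCr8), and 3 of them are shown because their genes had the largest changes in level and hold different sets of the letters that the factors of this response are known to bind. Capitals mark every match, on either strand. Searched were the ER stress element (CCAAT and CCACG with 9 free bases between them), bound by ATF6 and XBP1 with NF-Y, its CCACG end alone, the ER stress element II (ATTGG and CCACG with 1 free base between them), the unfolded protein response element TGACGTGG, the CHOP and ATF composite letters TGATGNAA, and the E-box CAGCTG of MIST1. The CCACG end also lies inside the 2 longer elements that close with it.
Xbp1, chr14:84604373-84604622, plus strand: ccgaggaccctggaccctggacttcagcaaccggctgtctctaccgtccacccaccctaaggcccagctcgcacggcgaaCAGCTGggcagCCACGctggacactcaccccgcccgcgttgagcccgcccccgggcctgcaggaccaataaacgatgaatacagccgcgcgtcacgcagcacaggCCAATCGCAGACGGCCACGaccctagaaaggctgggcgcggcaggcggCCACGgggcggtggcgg
Bhlha15, chr12:15538300-15538549, minus strand: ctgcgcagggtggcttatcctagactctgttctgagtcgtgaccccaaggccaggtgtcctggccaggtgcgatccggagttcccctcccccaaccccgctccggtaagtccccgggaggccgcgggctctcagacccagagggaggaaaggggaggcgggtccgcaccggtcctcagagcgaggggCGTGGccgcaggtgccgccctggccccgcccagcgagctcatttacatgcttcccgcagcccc
Nupr1, chr1:190645902-190646151, minus strand: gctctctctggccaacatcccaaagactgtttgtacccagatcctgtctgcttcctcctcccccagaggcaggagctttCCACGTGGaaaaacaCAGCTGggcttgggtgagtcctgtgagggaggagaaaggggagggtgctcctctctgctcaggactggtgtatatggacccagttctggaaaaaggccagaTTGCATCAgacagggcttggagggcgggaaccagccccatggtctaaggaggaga
The Xbp1 sequence held a whole ER stress element, from base 65 to base 47 before the start, which 22 of 33469 rat promoters of the same length held (0.0657%). It also held CCACG at 2 further places and the E-box at bases 170 to 165. The Bhlha15 sequence held 1 CCACG, on the other strand at bases 63 to 59, and no E-box. The Nupr1 sequence held CCACG on both strands, overlapping between bases 171 and 164, the E-box at bases 156 to 151 and the composite letters at bases 55 to 48. Of all promoters 27.2% held CCACG, 12.0% the E-box and 3.4% the composite letters. Atf4, Ddit3 and Ppp1r15a held 1 CCACG each, and Eif2ak3 and Creb3l2 none of the letters searched. No member held the ER stress element II (0.0418% of promoters) or the unfolded protein response element (0.52%). A match describes the sequence, and binding was not measured.

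Facts of the whole series bear on these values in several ways. The 10 parotid acinar markers had a mean log2 level of 4.07 to 5.93 in stage 1 and of 12.83 to 13.56 in stage 4, so that the defining secretory genes were low in the youngest samples labelled acinar. Replicate 1 of E18, E20 and P0 stood apart from the other 6 arrays of stage 1: its 8 skeletal muscle markers averaged 11.20 to 11.92, against 5.71 to 10.19, and its 8 epidermis and hair markers 7.96 to 8.66, against 4.46 to 5.51. Values are therefore also given without these 3 arrays, an alternative chosen after the data were seen. It leaves later arrays with such markers in place. Skeletal muscle markers averaged up to 10.80 in stage 2, 12.01 in stage 3 and 8.41 in stage 4. Epidermis and hair markers averaged up to 10.01 in stage 2, 8.72 in stage 3 and 5.23 in stage 4. In bulk RNA of this kind, fewer cells of a type and less RNA per cell cannot be told apart. Between stage 4 and stage 1 the median of all probe sets itself moved by 0.19, and between P25 and E18 by 0.24, so changes in these comparisons are also given relative to that shift. Its sign depended on low probe sets. Among the 20709 probe sets above a log2 level of 6 in at least 3 arrays, the median moved by -0.128 and -0.154. Of these, 18.7% were called higher and 25.5% lower between stage 4 and stage 1.

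Over the 9 ages, 5 of the 9 measured genes passed the moderated F test of limma at an adjusted p of 0.05: Xbp1, Bhlha15, Nupr1, Eif2ak3 and Atf4. Of all probe sets, 24.5% passed it. Between stage 4 and stage 1, 6 of the 9 rose and 0 fell, against 27.2% of all probe sets called higher and 17.8% called lower (45% in either direction). The sixth was Atf6. Ddit3, Ppp1r15a and Creb3l2 were not called. Between P25 and E18, 7 rose, the 6 with Creb3l2, where 20.1% of all probe sets were called higher, 13.4% lower and 33.5% in either direction. This count was 4 with marker levels in the model and 4 with only these ages in the fit, where Atf6, Atf4 and Creb3l2 were no longer called. Atf6 was counted by its leading probe set, and its second one was not called (1.05, limma, adjusted p = 0.0535). The leading call was also lost without E18 replicate 2 (adjusted p = 0.108) or P25 replicate 1 (adjusted p = 0.0812).

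**Figure D1:**
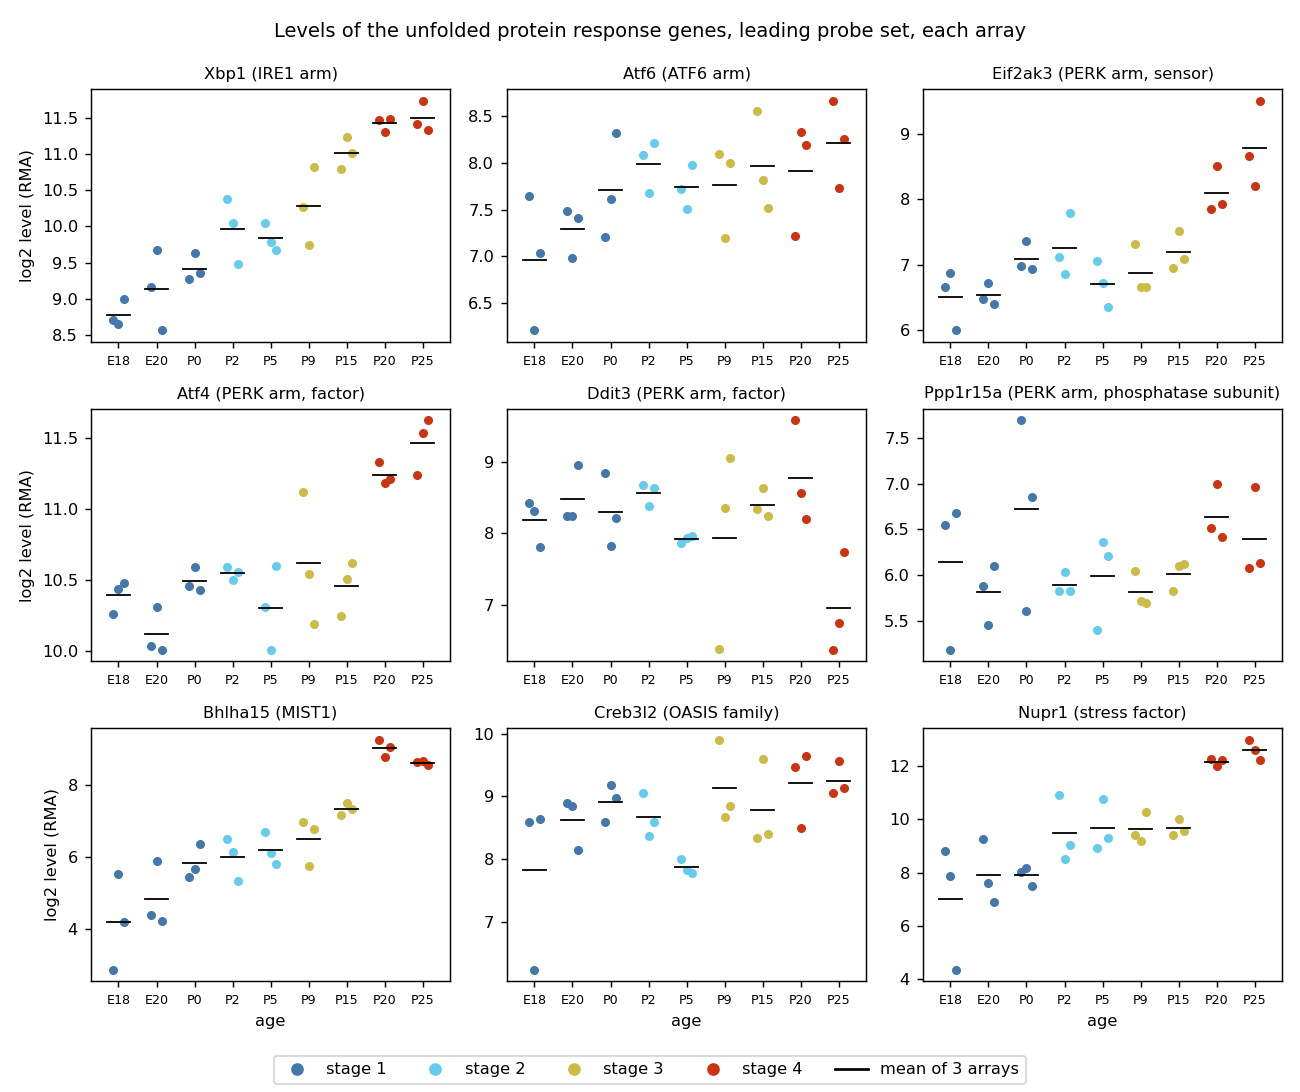
Log2 level of the leading probe set of each measured gene (y axis, 1 scale per gene) in every array by age (x axis), where points are arrays coloured by stage and bars are means of 3 arrays. In Xbp1, Eif2ak3, Atf4, Bhlha15 and Nupr1 the 6 arrays of P20 and P25 lie above all earlier arrays. The share of all probe sets that do the same was not counted.

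IRE1 acts on Xbp1 by splicing, which was not measured. Its arm was therefore represented only by the total mRNA of Xbp1, whose spliced product drives the genes of ER import, folding and secretion. Its log2 levels were 8.70, 8.65 and 8.99 at E18, 9.16, 9.68 and 8.56 at E20, and 9.27, 9.63 and 9.35 at P0. They were 10.38, 10.05 and 9.48 at P2, 10.05, 9.78 and 9.67 at P5, 10.27, 9.74 and 10.83 at P9, and 10.80, 11.24 and 11.02 at P15. At P20 they were 11.48, 11.31 and 11.49, and at P25 11.42, 11.74 and 11.33. Every array of stage 4 lay above every earlier array, and stages 2 and 3 overlapped. Xbp1 was 2.35 ± 0.19 (SE) higher in stage 4 than in stage 1 (limma, adjusted p = 5.37e-09), which is 2.16 beyond the shift of the median, or 4.47-fold. The difference was 2.32 ± 0.22 without the 3 arrays that stood apart (adjusted p = 4.65e-07).

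The steps between adjacent stages were taken next, without a test of one step against another. Xbp1 rose by 0.79 ± 0.19 in stage 2 against stage 1 (adjusted p = 0.0212), differed by 0.75 ± 0.21 in stage 3 against stage 2 (adjusted p = 0.0883, not called), and rose by 0.81 ± 0.21 in stage 4 against stage 3 (adjusted p = 0.0169). The first step was lost without P2 replicate 1 (0.69, adjusted p = 0.0744), without P5 replicate 1 (0.74, adjusted p = 0.0597) and without the 3 arrays that stood apart (0.76, adjusted p = 0.0685), and the last without P9 replicate 2 (0.67, adjusted p = 0.0523). With the mean levels of muscle, epidermis and cartilage markers added to the model, neither step was called (0.94 with adjusted p = 0.22, and 0.68 with adjusted p = 0.117). In order of mean level the ages ran E18, E20, P0, P5, P2, P9, P15, P20, P25, and no pair of adjacent ages was past the threshold. The mean was 8.78 ± 0.19 (SD, n = 3) at E18, 11.02 ± 0.22 at P15, 11.42 ± 0.10 at P20 and 11.50 ± 0.22 at P25.

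The ATF6 arm was represented by the mRNA of Atf6 itself, whose freed domain switches on ER chaperones. On its leading probe set the lowest, median and highest log2 levels were 6.21, 7.41 and 8.32 in stage 1, 7.51, 7.85 and 8.21 in stage 2, 7.20, 7.90 and 8.55 in stage 3, and 7.22, 8.22 and 8.66 in stage 4. All 4 stages overlapped. Atf6 was 0.74 ± 0.25 higher in stage 4 than in stage 1 (adjusted p = 0.0212), or 0.55 beyond the shift, and the second probe set was 0.82 ± 0.27 higher (adjusted p = 0.0174). No step between adjacent stages was called for either probe set. The call on the leading probe set was lost without P20 replicate 2 (adjusted p = 0.0662), P20 replicate 3 (0.0534) or P25 replicate 1 (0.0636) and with the marker levels in the model (0.104). In stage 3 against stage 1, a comparison added after the data were seen, the second probe set was 1.05 ± 0.27 higher (adjusted p = 0.0109) and the leading one differed by 0.54 ± 0.25 (adjusted p = 0.153). The difference between the 2 probe sets was not tested.

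In the PERK arm the sensor and its main factor were higher late, and 2 downstream genes were not called. Eif2ak3, which encodes PERK, had lowest, median and highest levels of 5.99, 6.71 and 7.36 in stage 1, 6.35, 6.95 and 7.79 in stage 2, 6.65, 7.02 and 7.52 in stage 3, and 7.85, 8.36 and 9.51 in stage 4. In stage 4 its arrays were at 7.85, 8.51 and 7.93 at P20 and at 8.66, 8.21 and 9.51 at P25, all above the 21 earlier ones. Eif2ak3 was 1.41 ± 0.23 higher in stage 4 than in stage 3 (adjusted p = 0.000528). Its differences of 0.28 ± 0.21 in stage 2 against stage 1 and 0.05 ± 0.23 in stage 3 against stage 2 were not called. Against stage 1 the stage 4 level was 1.74 ± 0.21 higher (adjusted p = 2.15e-06), 1.55 beyond the shift or 2.93-fold.

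Atf4, the factor whose translation rises when eIF2alpha is phosphorylated, had log2 levels of 10.01 to 10.59 in stage 1, 10.01 to 10.60 in stage 2 and 10.19 to 11.12 in stage 3. At P20 its arrays read 11.33, 11.18 and 11.21, and at P25 11.24, 11.53 and 11.62. The highest earlier array, P9 replicate 1 at 11.12, lay just below them, and no array of stage 4 overlapped an earlier stage. Atf4 was 0.81 ± 0.15 higher in stage 4 than in stage 3 (adjusted p = 0.00188) and 1.01 ± 0.14 higher than in stage 1 (adjusted p = 1.01e-05), which is 0.82 beyond the shift. Neither of its earlier steps was called, with differences of 0.09 ± 0.14 and 0.11 ± 0.15. For both Eif2ak3 and Atf4 the late step was called under every alternative run.

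Ddit3, which encodes the pro-apoptotic factor CHOP, was not called between any stages. Its levels had a median of 8.24 in stage 1, 8.17 in stage 2, 8.35 in stage 3 and 7.97 in stage 4, and spread from 6.37 to 9.58 within stage 4. This spread lay between its 2 ages: the arrays of P25 were at 6.37, 6.75 and 7.74, against 9.58, 8.56 and 8.20 at P20. The groups of 3 arrays did not overlap, and the share of all probe sets that do the same was not counted. The difference of -1.83 ± 0.49 had an adjusted p of 0.0761, at a step where 0.921% of all probe sets were called. Against E18, at 8.42, 8.32 and 7.81, P25 differed by -1.23 ± 0.49 (adjusted p = 0.0576). It was called when 1 of 4 single arrays was left out: P9 replicate 1 (-1.23, adjusted p = 0.0148), P9 replicate 3 (0.0365), P20 replicate 1 (0.0495) or P25 replicate 3 (-1.62, adjusted p = 0.0291).

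Ppp1r15a, which encodes GADD34 and directs a phosphatase to eIF2alpha, ran from 5.18 to 7.69 in stage 1, from 5.40 to 6.36 in stage 2, from 5.69 to 6.12 in stage 3 and from 6.08 to 6.99 in stage 4. Its highest array was P0 replicate 1, and all 4 stages overlapped. Its difference of 0.29 ± 0.27 between stage 4 and stage 1 (adjusted p = 0.397) was within the spread between arrays. The values were low: 4 of 9 arrays of stage 1, 3 of 6 of stage 2, 3 of 6 of stage 3 and 0 of 6 of stage 4 lay below a log2 level of 6. The 10 immediate-early genes measured, which respond to handling of tissue, averaged 7.21 to 7.76 in stage 4, against 7.50 to 9.07 in stage 1, with their highest values at P0. Their part in the level of Ppp1r15a was not tested.

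**Figure D2:**
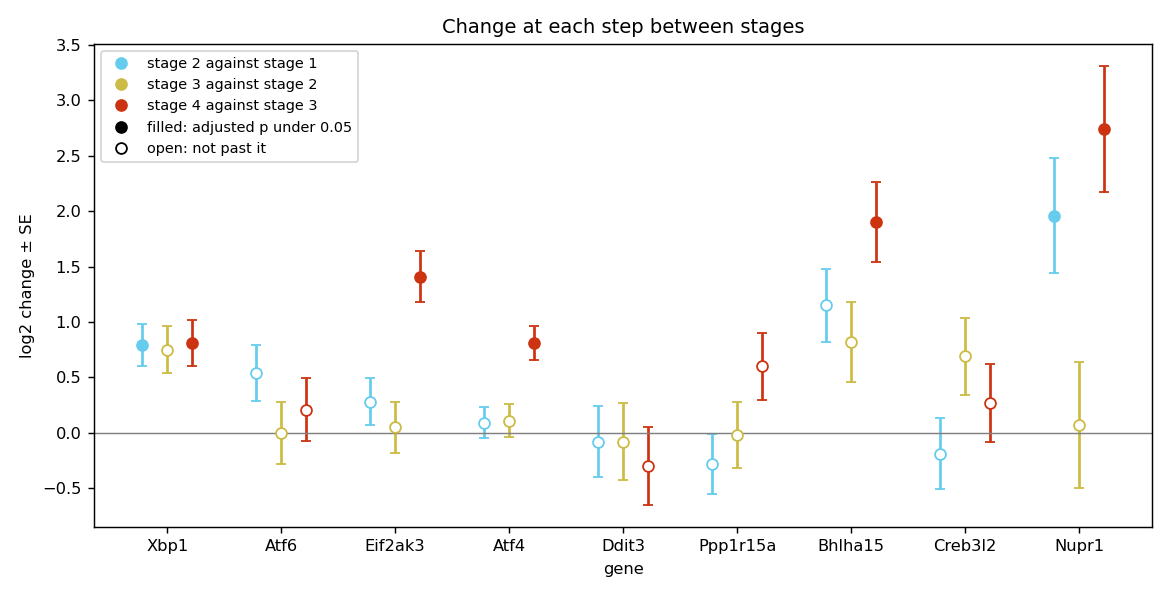
Log2 change with its SE (y axis) for each gene (x axis) at the 3 steps between adjacent stages, on the leading probe set, where filled points passed an adjusted p of 0.05. The 3 steps of Xbp1 lie between 0.75 and 0.81, and the middle one is not past the threshold. Eif2ak3 and Atf4 pass it at the last step alone, with changes of 1.41 and 0.81. No step was tested against another.

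Counted over the steps, 2 of the 9 genes rose in stage 2 against stage 1, Xbp1 and Nupr1, where 1.63% of all probe sets were called higher and 2.96% in either direction. Other markers moved at this step too. The mean level of adipocyte markers had a median of 8.65 in stage 2 and 4.84 in stage 1 (6 of 7 called higher), that of myoepithelial and basal markers 10.51 and 8.95 (3 of 7), and that of epidermis and hair markers 8.56 and 5.39 (4 of 8). Their part in the rises of Xbp1 and Nupr1 was not tested beyond the model with marker levels, which held no adipocyte or myoepithelial markers. In stage 3 against stage 2, limma called 0 of the 9 (0.76% of all probe sets), and 2, Xbp1 and Bhlha15, had an unadjusted p under 0.05, as did 15.5% of all probe sets. In stage 4 against stage 3, 5 rose (Xbp1, Eif2ak3, Atf4, Bhlha15 and Nupr1), where 4.09% of all probe sets were called higher and 8.36% in either direction. Between adjacent ages limma called 0 of the 9 at any of 8 steps, where the share of all probe sets called was 0.0161%, 0.0129%, 0.184%, 0.00644%, 0.029%, 0.0612%, 0.358% and 0.921% from the first step to the last. Unadjusted p-values under 0.05 were reached by 4 genes in P20 against P15, namely Nupr1 (2.49 ± 0.81), Bhlha15 (1.69 ± 0.51), Eif2ak3 (0.91 ± 0.33) and Atf4 (0.78 ± 0.22), and by 8.22% of all probe sets. They were also reached by Ddit3 and Eif2ak3 in P25 against P20 (15.7% of all probe sets), and by 1 gene in each of P0 against E20 (3.32%), P9 against P5 (13.1%) and P15 against P9 (6.11%).

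The arms were set against each other by the difference of 2 genes within each array, since levels of different probe sets cannot be compared. This took changes of different probe sets to be on a like scale, which was not tested. Total Xbp1 mRNA does not report splicing by IRE1, and the Xbp1 promoter held an element that ATF6 also binds. Xbp1 minus Atf6 thus compares 2 mRNAs and does not separate the IRE1 arm from the ATF6 arm. Of the 6 pairs planned, the 2 with Ern1 could not be run, and p-values were adjusted over the other 4. Between stage 4 and stage 1 the change of Xbp1 exceeded that of Atf6 by 1.61 ± 0.32 (SE; exact permutation test over 15 arrays, two-sided, adjusted p = 0.0004). It exceeded that of Atf4 by 1.34 ± 0.15 (adjusted p = 0.0004, from an unadjusted 0.0002, the smallest that 5005 regroupings can give). Neither difference overlapped between the stages: Xbp1 minus Atf4 ran from -0.30 to 0.28 in stage 4 and from -1.80 to -0.63 in stage 1. The share of other pairs of genes without overlap was not counted.

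Among sensors, the change of Atf6 was smaller than that of Eif2ak3 by 1.00 ± 0.30 (exact permutation test, adjusted p = 0.0147). Atf6 minus Eif2ak3 ran from -1.25 to 0.26 in stage 4 and from -0.66 to 1.39 in stage 1, with overlap, and without the 3 arrays that stood apart the adjusted p was 0.0519. The changes of Atf6 and Atf4 differed by -0.27 ± 0.32 (exact permutation test, adjusted p = 0.421), an uncertainty wide enough that the pair cannot be called alike.

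The same pairs of genes were also compared by step, in 8 comparisons that were added after the data were seen. No step was tested against another, and mRNA levels do not report the activity of an arm. In stage 3 against stage 1, Xbp1 had changed by 1.34 ± 0.33 more than Atf4 (exact permutation test, adjusted p = 0.00799) and by 1.00 ± 0.31 more than Atf6 (adjusted p = 0.0218 in the exact permutation test). Both differences overlapped between the stages: Xbp1 minus Atf4 ran from -0.85 to 0.73 in stage 3 and from -1.80 to -0.63 in stage 1, and Xbp1 minus Atf6 from 2.18 to 3.50 in stage 3 and from 1.03 to 2.70 in stage 1. By step, pairs with Atf6 used its leading probe set alone, which changed by 0.54 in stage 3 against stage 1. The second probe set changed by 1.05 ± 0.27 there, nearer to the 1.54 of Xbp1, and that pair was not tested. In stage 4 against stage 3 the changes of Xbp1 and Atf4 were both 0.81, with a standard error of 0.31 on their difference (exact permutation test, adjusted p = 0.991). In that step Atf6 changed by 1.21 ± 0.31 less than Eif2ak3 (exact permutation test with 924 regroupings, adjusted p = 0.00866), and the arrays did not overlap, with differences of -1.25 to 0.26 in stage 4 and 0.29 to 1.60 in stage 3. How many other pairs of genes lie apart in this way was not counted.

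**Figure D3:**
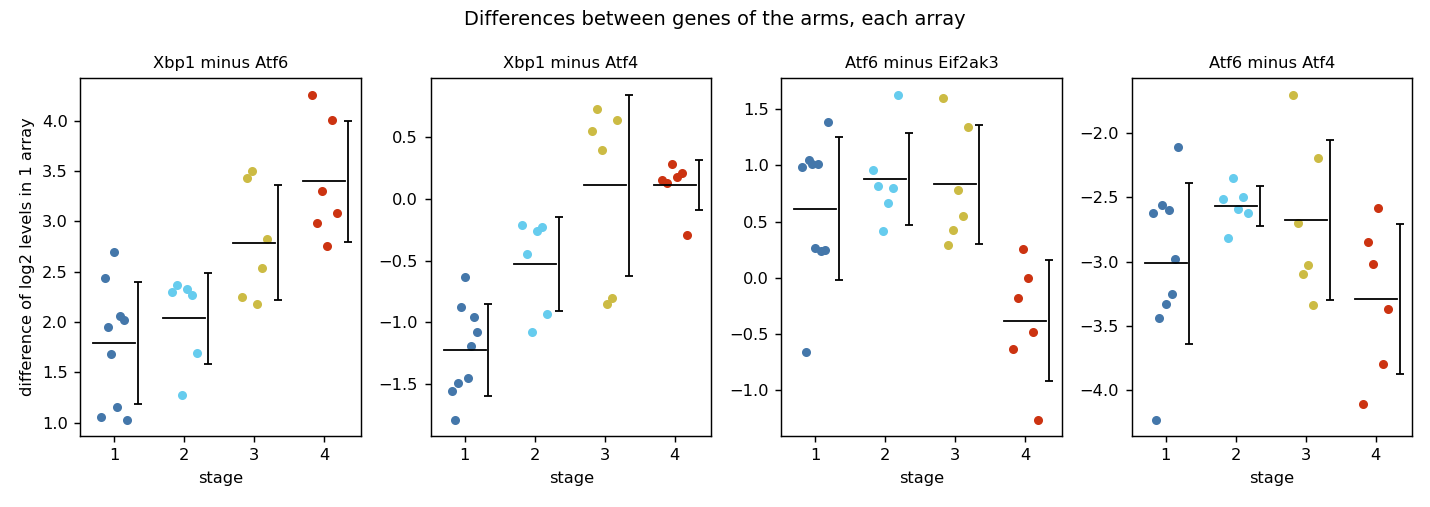
Difference of 2 genes' log2 levels within each array (y axis) by stage (x axis), where points are arrays, horizontal bars their means and whiskers 1 SD. Xbp1 minus Atf4 rises before stage 4 and Atf6 minus Eif2ak3 falls in stage 4, where it ran from -1.25 to 0.26.

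Bhlha15, which encodes MIST1, a factor that enlarges the secretory apparatus of exocrine cells, had one of the widest ranges among the measured genes. Its log2 levels were 2.87, 5.52 and 4.20 at E18, 4.38, 5.89 and 4.22 at E20, 5.44, 5.66 and 6.37 at P0, 6.70, 6.10 and 5.80 at P5, and 7.16, 7.51 and 7.32 at P15. They were 9.25, 8.77 and 9.05 at P20 and 8.64, 8.66 and 8.56 at P25. All stage 4 arrays lay more than 1 unit above the highest earlier one. Bhlha15 was 3.87 ± 0.33 higher in stage 4 than in stage 1 (adjusted p = 1.56e-08), 3.68 beyond the shift or 12.8-fold, and 3.51 ± 0.31 higher without the 3 arrays that stood apart. With the marker levels in the model the change was 2.93 ± 0.38, and 8 of the 9 arrays of stage 1 lay below a log2 level of 6, so the fold rests on low values. It rose by 1.90 ± 0.36 in stage 4 against stage 3 (adjusted p = 0.00195). In stage 3 against stage 1 it rose by 1.96 ± 0.33 (adjusted p = 0.000405), as did Xbp1 by 1.54 ± 0.19 (adjusted p = 1.05e-05) and Nupr1 by 2.03 ± 0.52 (adjusted p = 0.012), 3 of 9 genes where 6.98% of all probe sets were higher and 15.4% were called. Its difference of 1.15 ± 0.33 in stage 2 against stage 1 was not called (adjusted p = 0.0646).

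Of 14216 genes ranked by their correlation with Xbp1 over the 27 arrays, Bhlha15 stood in place 5 (r = 0.935). Each gene was ranked here by its probe set with the highest correlation. These arrays share a trend with age, and after the age means were taken off the correlation was 0.557. The genes nearest to Xbp1 were Fkbp11 (r = 0.949), a prolyl isomerase of the ER, Kcnn4 (0.944), a calcium-activated potassium channel, Slc31a2 (0.941), a copper transporter, and Rnase1l2 (0.937), a ribonuclease. Oxr1 (0.932), Fkbp2 (0.93) and Rpn1 (0.929), a subunit of the oligosaccharyltransferase, followed Bhlha15. Within ages Rpn1 had the higher correlation, 0.656, and the rest of these nearest genes ran from 0.342 (Fkbp11) to 0.489 (Fkbp2). Nupr1 was in place 143 (r = 0.827), Eif2ak3 in place 483 (0.725) and Atf4 in place 531 (0.716). Within ages these were 0.165, -0.133 and 0.048. Eif2ak3 and Atf4 had an r of 0.84 with each other over all arrays and of 0.25 within ages.

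XBP1 and MIST1 are also factors of plasma cells, which settle in salivary glands after birth. Some markers of these cells moved with the last step. Of 11 plasma cell and lymphocyte genes listed, 8 were measured, and their mean log2 level ran from 4.75 to 5.24 in stage 1, 4.96 to 5.55 in stage 2, 5.14 to 5.71 in stage 3 and 6.86 to 7.29 in stage 4. In stage 4 against stage 1, 5 of the 8 rose and 0 fell, where 27.2% of all probe sets were called higher. In stage 4 against stage 3, 3 of the 8 rose and 0 fell, where 4.09% were called higher. Jchain, the joining chain of secreted antibodies, was at 3.89, 4.29 and 3.80 at P9, 6.20, 5.76 and 5.74 at P15, 10.52, 10.68 and 10.39 at P20, and 11.37, 11.74 and 11.38 at P25. Pou2af1, a coactivator of B cells, averaged 6.32 ± 0.89 at P20 and 3.25 ± 0.31 at P15 (SD, n = 3). The part of plasma cells in the levels of stages 3 and 4 was not tested.

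**Figure D4:**
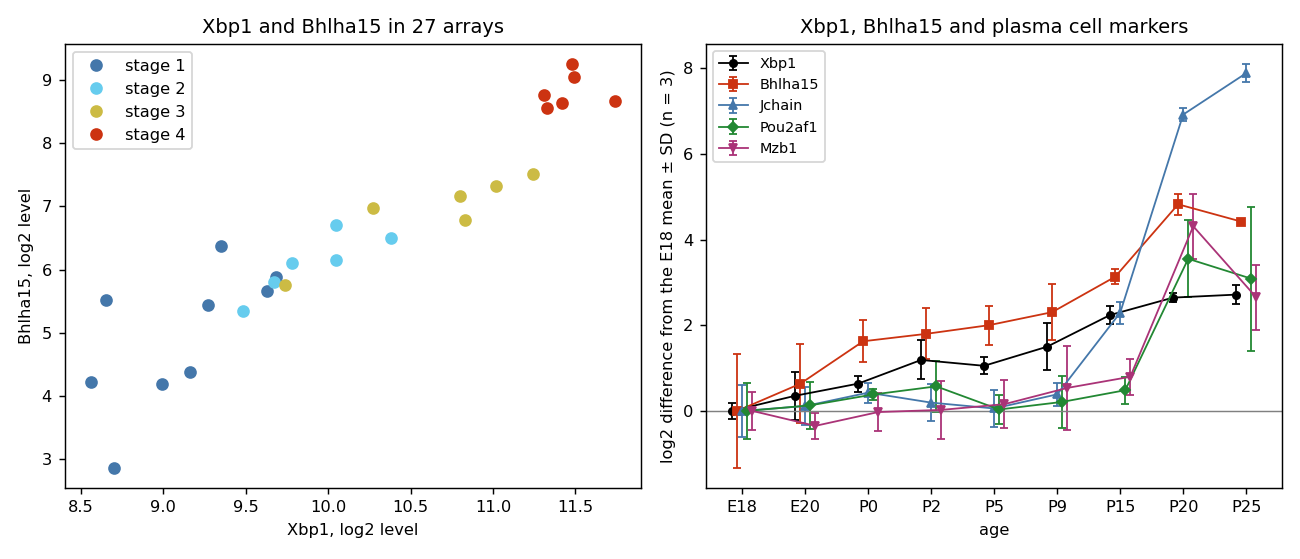
Left, log2 level of Bhlha15 (y axis) against that of Xbp1 (x axis) in the 27 arrays, coloured by stage. Right, mean log2 difference from E18 (y axis, bars are SD, n = 3) by age (x axis) of both genes and of 3 plasma cell markers, of which Jchain lay 7.89 above its E18 mean at P25.

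Nupr1, a small chromatin protein induced by many kinds of stress, was the other gene with a wide range. Its lowest, median and highest levels were 4.37, 7.89 and 9.25 in stage 1, 8.53, 9.16 and 10.93 in stage 2, 9.19, 9.50 and 10.27 in stage 3 and 12.01, 12.25 and 12.98 in stage 4. The 6 arrays of stage 4 read 12.26, 12.01 and 12.23 at P20 and 12.98, 12.61 and 12.22 at P25, clear of all others. Nupr1 was 4.76 ± 0.52 higher in stage 4 than in stage 1 (adjusted p = 4.9e-07), 4.57 beyond the shift or 23.8-fold. That change was 5.30 ± 0.50 without the 3 arrays that stood apart and 6.07 ± 0.64 with the marker levels in the model. It was 2.74 ± 0.57 higher in stage 4 than in stage 3 (adjusted p = 0.00422), where stage 3 and stage 2 differed by 0.07 ± 0.57. Its rise of 1.96 ± 0.52 in stage 2 against stage 1 (adjusted p = 0.0432) was no longer called in 16 of 27 fits that left out 1 array. Without the 3 arrays that stood apart that rise was 2.50 ± 0.50 (adjusted p = 0.0077).

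Creb3l2, an ER membrane factor of the OASIS family that activates secretory pathway genes after cleavage in the Golgi, ran from 6.24 to 9.18 in stage 1, 7.78 to 9.06 in stage 2, 8.34 to 9.90 in stage 3 and 8.50 to 9.65 in stage 4. The stages overlapped, and the stage 4 level differed from stage 1 by 0.77 ± 0.32 (adjusted p = 0.0549). P25, at 9.06, 9.57 and 9.13, was 1.43 ± 0.50 higher than E18, at 8.59, 6.24 and 8.64 (adjusted p = 0.0324), which is 1.18 beyond the shift. Without E18 replicate 2 the difference was 0.64 with an adjusted p of 0.25. It was also no longer called without P25 replicate 1 (adjusted p = 0.0516), replicate 2 (0.0932) or replicate 3 (0.0583).

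Other genes of the response were taken from lists, each gene by its leading probe set, with changes in stage 4 against stage 1 given relative to the shift of the median. The sign of that shift depended on low probe sets, so small values have no settled sign. Each call and each adjusted p was made on the change with the shift still in it. Of all probe sets, 27.2% were called higher and 17.8% lower in this comparison, and a count of 2 in 8 genes is near the first share. Of 4 relatives of Creb3l2, 3 rose and 0 fell, with a list median of 0.84: Creb3l1 by 1.67, Creb3l4 by 1.05 and Creb3l3 by 0.63. Of 6 IRE1 regulators and partners measured, 3 rose and 1 fell, with a median of 0.25. Dnajb9, a co-chaperone that holds IRE1 inactive, was higher by 1.36 and Tmbim6, an inhibitor of IRE1, by 0.64. The second probe set of Tmbim6 showed a wider range. It averaged 9.57 at E18 and 11.65 at P25, against 10.65 and 11.69 on the leading one. The one that fell was Rtcb (-1.14), the ligase that joins the spliced Xbp1 mRNA. Of 8 regulators, relatives and partners of ATF6, 2 rose, Atf6b (0.98) and Wfs1 (0.52), and 3 fell, among them Nfya (-1.44) and Nfyb (-1.37), subunits of the factor NF-Y that binds the ER stress element beside ATF6. The list does not part genes that favour ATF6 from genes that restrain it. The median of that list was -0.02. Of 8 genes of PERK and the other eIF2alpha kinases, 2 rose, Ppp1r15b (1.54), the constitutive counterpart of Ppp1r15a, and Dnajc3 (1.45), an inhibitor of eIF2alpha kinases, and 1 fell, Eif2s1 (-1.34), which encodes eIF2alpha itself, and the median was -0.19.

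Among target genes, 12 of 18 listed for XBP1 rose and 0 fell, with a list median of 0.92. Ero1b, an oxidase for disulphide bonds, was higher by 3.14, Srpra, a subunit of the signal recognition particle receptor, by 1.81 and Sec61a1, of the translocation channel, by 1.16. Of 13 ATF6 targets measured, 10 rose and 1 fell (Pdia4, -0.79), with a median of 0.90. Herpud1, a component of ER-associated degradation, was higher by 2.98, Sel1l, its adaptor, by 2.05 and Syvn1, its ubiquitin ligase, by 1.30. The chaperone Hspa5, or BiP, which stands in 2 of the lists, as do Dnajb9 and Pdia6, was higher by 0.40 ± 0.12 (adjusted p = 0.00958), which is 0.21 beyond the shift.

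Of 24 ATF4 and CHOP targets, 11 rose and 0 fell, with a median of 0.44. Aldh1l2, a mitochondrial folate enzyme, was higher by 2.74, Asns, asparagine synthetase, by 2.12, Eif4ebp1, a repressor of translation, by 1.76 and Trib3, a pseudokinase, by 1.64. Before the shift was taken off, Atf3, a stress-induced factor (-0.90, adjusted p = 0.0526), Chac1, which degrades glutathione (0.85, adjusted p = 0.0854), and Ddit4, an inhibitor of mTOR (-0.43, adjusted p = 0.177), were not called. Of 8 MIST1 partners and targets, 5 rose and 1 fell, with a median of 1.14, and they included the gap junction gene Gjb1 (2.87), the ER-phagy receptor Ccpg1 (2.17) and the granule GTPase genes Rab26 (1.57) and Rab3d (1.41). The one that fell was Tcf12 (-1.21), a partner of MIST1. In the step to stage 4 from stage 3 alone, 12 of 18 XBP1 targets, 6 of 13 ATF6 targets and 10 of 24 ATF4 and CHOP targets rose and 0 of them fell. Of all probe sets, 27.2% were called higher between stages 4 and 1 and 4.09% between stages 4 and 3.

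**Figure D5:**
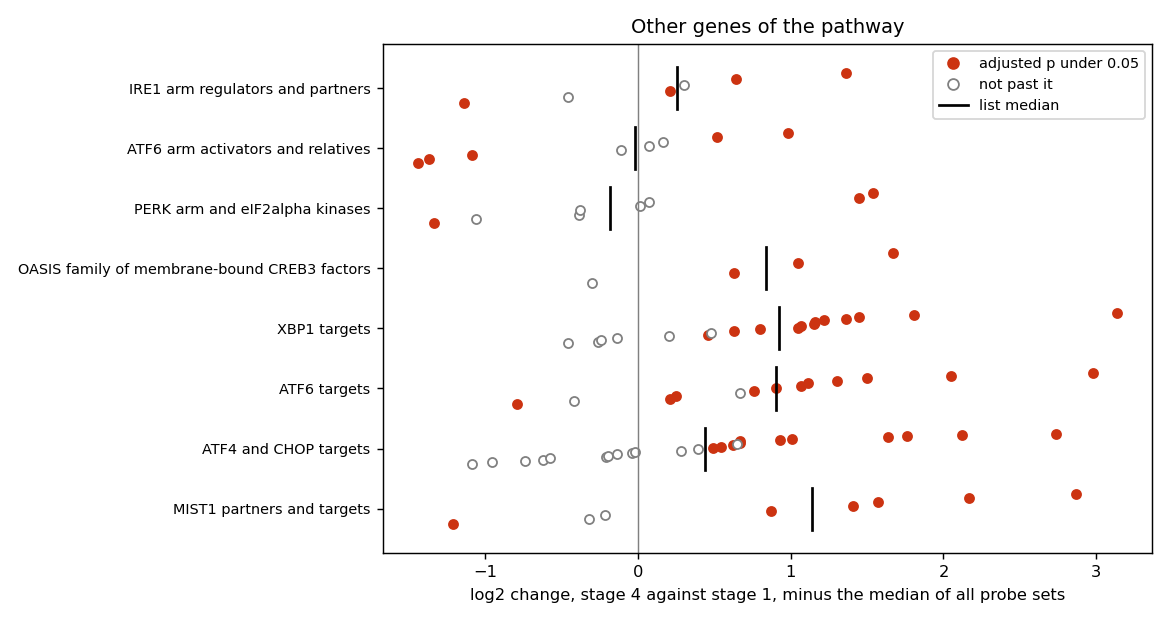
Log2 change in stage 4 against stage 1, less the median of all probe sets (x axis), of each gene of the 8 lists (y axis), where filled points passed an adjusted p of 0.05 on the uncorrected change and black bars are list medians. Medians run from -0.19 for the PERK and eIF2alpha kinase genes to 1.14 for the MIST1 genes.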

How the data were processed

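RNA from laser-captured acini was purified with a kit for small samples, amplified from 1.5 or 4.5 ng per the labels (which array had which is not stated) and hybridised to Rat Genome 230 2.0 arrays. The authors deposited log2 values after robust multi-array averaging (RMA), on a common scale with 1 value per probe set, and they were used unchanged. Of the probe sets, 57 array controls were left out. Genes were named from the platform annotation, updated by gene ID, and the probe set with the highest mean over the 27 arrays led for each gene. limma 3.58.1 in R 4.3.3 was fitted with 1 coefficient per age (18 residual degrees of freedom), with two-sided p-values adjusted by Benjamini and Hochberg over 31042 probe sets and a threshold of 0.05. Pairs of genes were compared by exact permutation over arrays. The fit was tested on simulated data. Named list genes were up to 3 called genes per list with the largest t, any others being chosen after their values were seen. The genes and lists were chosen with earlier results of these data known. Alternatives changed the normalisation, filter, moderation, array weights, covariates, samples and replicate block. P-values measure the spread between arrays, whose number limits precision.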

Additional observations from a re-analysis of the deposited data

Results flagged for a closer look

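In 40 groups of arrays, 1 per probe set and stage, 3 had an array farther from its neighbours than Dixon's critical gap allows, and chance alone sets off about 1 in 20 such groups. Ddit3 was at 6.38 in P9 replicate 1, with the other 5 arrays of stage 3 between 8.24 and 9.05. Creb3l2 was at 6.24 in E18 replicate 2, with the other 8 arrays of stage 1 between 8.15 and 9.18. Nupr1 was at 4.37 in E18 replicate 3, with the other 8 arrays of stage 1 between 6.90 and 9.25. The 3 values fell on 3 different arrays, and none of them is among the 3 arrays with the highest muscle markers in stage 1.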

How the results depend on the processing

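Of the counts of called genes, those over the 9 ages (5 to 6 in all alternatives), in stage 4 against stage 1 (5 to 7) and in stage 4 against stage 3 (4 to 5) stayed within 1.5 times, and no called change turned its sign. In stage 2 against stage 1 the count of 2 became 0 with muscle, epidermis and cartilage marker levels in the model, 1 with only the ages compared in the fit and 1 without the 3 arrays that stood apart. It ran from 0 to 3 when single arrays were left out, and was 1 or 0 without E20 replicate 3, P2 replicates 1 or 3, P9 replicate 2 or any array of P0, P5, P15 or P20. In stage 3 against stage 2 the count of 0 became 1, Xbp1, with quantile normalization (adjusted p = 0.0367) and with array weights (adjusted p = 0.0499). In P25 against E18 the count of 7 became 4 with those marker levels in the model and 4 with only these ages in the fit, and ran from 5 to 8 when single arrays were left out. Without the 3 arrays that stood apart, Atf6 minus Eif2ak3 was -0.93 (adjusted p = 0.0519, exact permutation test). The cause of these changes was not tested. Without single arrays that difference ran from -1.15 to -0.82, Xbp1 minus Atf6 from 1.43 to 1.73 and Xbp1 minus Atf4 from 1.27 to 1.42. List genes called in stage 4 against stage 1 numbered 51 to 56. With the replicate block the counts were 5 over the ages, 6 in stage 4 against stage 1 and 2 in stage 2 against stage 1, and no count changed. Of 108 pairs of arrays with the same number, 11 had a correlation of deviations over 0.1, up to 0.459 (median 0.014), against at most 0.141 over 216 other pairs. Of these other pairs, 8 were over 0.1. The correlations cannot show whether some samples were paired or handled together, and the samples were not taken as paired.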
